A study of Mus musculus with 12 samples.

Results

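The genes described here are 10 members of the bone morphogenetic protein (BMP) pathway: the ligands Bmp2, Bmp4, Bmp5 and Bmp7, the secreted antagonists Grem1, Nog and Chrdl1, and the target genes Id1, Id2 and Id3. They were chosen by symbol, with earlier results of these data known, out of 22180 genes with a named probe set. Each was represented by 1 probe set. All mice had colorectal tumors induced by the carcinogen azoxymethane together with dextran sulfate sodium, an agent that injures and inflames the colon. The 12 arrays fell into 4 groups of 3: stroma of Stat3dm mice, stroma of Stat3wt mice, tumor of Stat3dm mice and tumor of Stat3wt mice. Stat3dm mice carried a conditional deletion of Stat3, a cytokine-activated transcription factor, in myeloid cells, and Stat3wt mice were wild type. The labels name no Cre driver, strain or age. Stroma and tumor were cut apart by laser-capture microdissection from paraffin sections, and each sample pooled 2 tumors of 1 mouse. The labels do not say whether stroma and tumor samples of 1 number came from the same mouse. Values are log2 signals after robust multi-array average (RMA), so a difference of 1 is a doubling.

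BMPs are secreted ligands that bind paired type I and type II serine/threonine kinase receptors. The receptors phosphorylate SMAD1, SMAD5 and SMAD9, which enter the nucleus with SMAD4 and switch on genes such as those of the ID proteins. ID proteins have a helix-loop-helix domain but no DNA-binding region, and they hold E proteins such as TCF3, TCF4 and TCF12 off DNA. In the gut, BMP signaling is strong towards the luminal end of the crypt, where it restrains stem cells, and mesenchymal cells around the crypt base secrete antagonists such as gremlin 1 that keep it low there.

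RefSeq promoter sequences of build GRCm38.p6 were at hand for 5 of the 10 genes, and those of Grem1, Id2 and Id3 are shown because the antagonist Grem1 was the member with the clearest tissue difference and Id2 and Id3 are the targets whose genotype groups did not overlap in stroma. Each is the 250 bases before the annotated gene start, 5′ to 3′ on the strand of the gene, with the letters GGCGCC, a GC-rich element bound by SMAD1 and SMAD5, in capitals.
Grem1, chr2:113758649-113758898, minus strand: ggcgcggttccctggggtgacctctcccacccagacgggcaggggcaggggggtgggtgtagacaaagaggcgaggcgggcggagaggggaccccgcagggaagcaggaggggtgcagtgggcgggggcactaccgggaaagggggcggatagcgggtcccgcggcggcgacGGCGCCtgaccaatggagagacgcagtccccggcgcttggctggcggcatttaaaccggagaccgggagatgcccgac
Id2, chr12:25096093-25096342, minus strand: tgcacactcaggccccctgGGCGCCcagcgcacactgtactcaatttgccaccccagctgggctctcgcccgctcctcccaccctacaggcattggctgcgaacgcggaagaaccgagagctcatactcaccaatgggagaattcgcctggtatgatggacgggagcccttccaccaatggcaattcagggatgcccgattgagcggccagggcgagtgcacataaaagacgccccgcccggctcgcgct
Id3, chr4:136143572-136143821, plus strand: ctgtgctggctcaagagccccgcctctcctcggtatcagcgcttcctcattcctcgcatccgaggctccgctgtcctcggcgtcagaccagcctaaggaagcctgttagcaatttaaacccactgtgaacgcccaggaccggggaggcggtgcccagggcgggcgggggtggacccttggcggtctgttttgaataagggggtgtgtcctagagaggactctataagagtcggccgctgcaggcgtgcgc
The motif GGCGCC, which reads the same on both strands, occurred once in Grem1, starting 78 bases before the gene start, and once in Id2, starting 231 bases before it. It did not occur in these windows of Id3, Bmp4 or Bmp5, and 9.59% of all 32851 promoter windows of this length held it. The STAT motif TTCNNNGAA, also the same on both strands, occurred in none of the 5 windows and in 7.02% of all windows. A match describes letters only.

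The arrays had medians of 4.20 to 4.43 and standard deviations (SD) of their log2 values of 1.60 to 1.91, widest in Stat3wt tumor 3 and Stat3dm tumor 3. Stat3 itself had log2 levels of 7.32 to 7.40 in Stat3dm stroma and 6.72 to 8.02 in Stat3wt stroma, and of 7.08 to 7.97 in Stat3dm tumor and 7.43 to 8.22 in Stat3wt tumor. The deletion concerns myeloid cells only, so these levels do not check the genotype labels. The tissue labels were checked with markers fixed for the colon. All 12 epithelial markers were lower in stroma than in tumor on average over both genotypes, with a median log2 difference of -1.03, and 6 of them passed the limma test (adjusted p under 0.05), among them Epcam and Cdh1. Stroma was higher for 10 of 11 fibroblast markers (median 0.54, 2 passing), all 9 smooth muscle markers (0.42, none passing, 2 at an unadjusted p under 0.05), all 8 endothelial markers (0.62, 3 passing) and all 10 leukocyte markers (1.08, 6 passing).

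**Figure D1:**
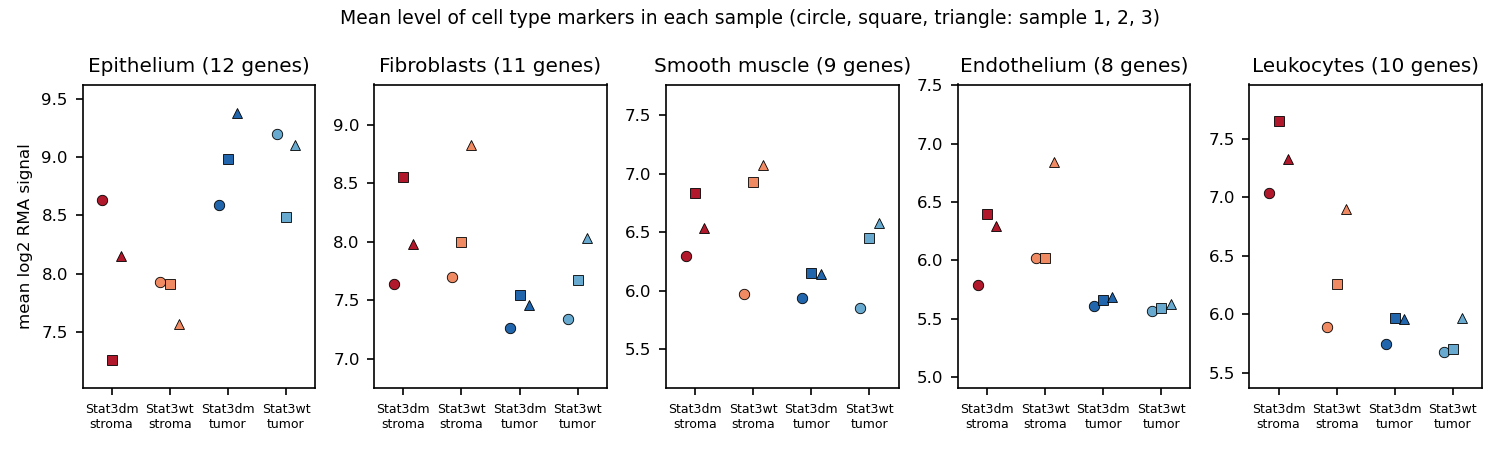
Mean log2 RMA signal over the markers of 5 cell types in each of the 12 samples, with the 4 groups along the x axis and 1 point a sample. Epithelial markers averaged 7.26 to 8.63 in Stat3dm stroma and 7.57 to 7.93 in Stat3wt stroma, against 8.59 to 9.38 in Stat3dm tumor and 8.49 to 9.20 in Stat3wt tumor, and leukocyte markers were highest in Stat3dm stroma (7.04 to 7.65).

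The question the study states is which stromal changes depend on STAT3 in myeloid cells. Among the BMP genes, no member passed the limma test in stroma alone (Bmp7 adjusted p = 0.336). Averaged over both tissues, Bmp7 was the member whose level separated the genotypes, at 2.09-fold lower in Stat3dm than in Stat3wt samples. That averaged call was lost under 8 of 23 alternatives. Bmp4, Bmp5 and the target Id3 had lower means in Stat3dm samples of both tissues without passing the test, and Bmp2, Grem1, Nog and Id1 showed smaller genotype differences. All 3 targets had lower means in Stat3dm than in Stat3wt tumor, and in stroma Id1 and Id3 did so too, whereas the mean of Id2 was higher in Stat3dm stroma; none of these differences passed the test.

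**Figure D2:**
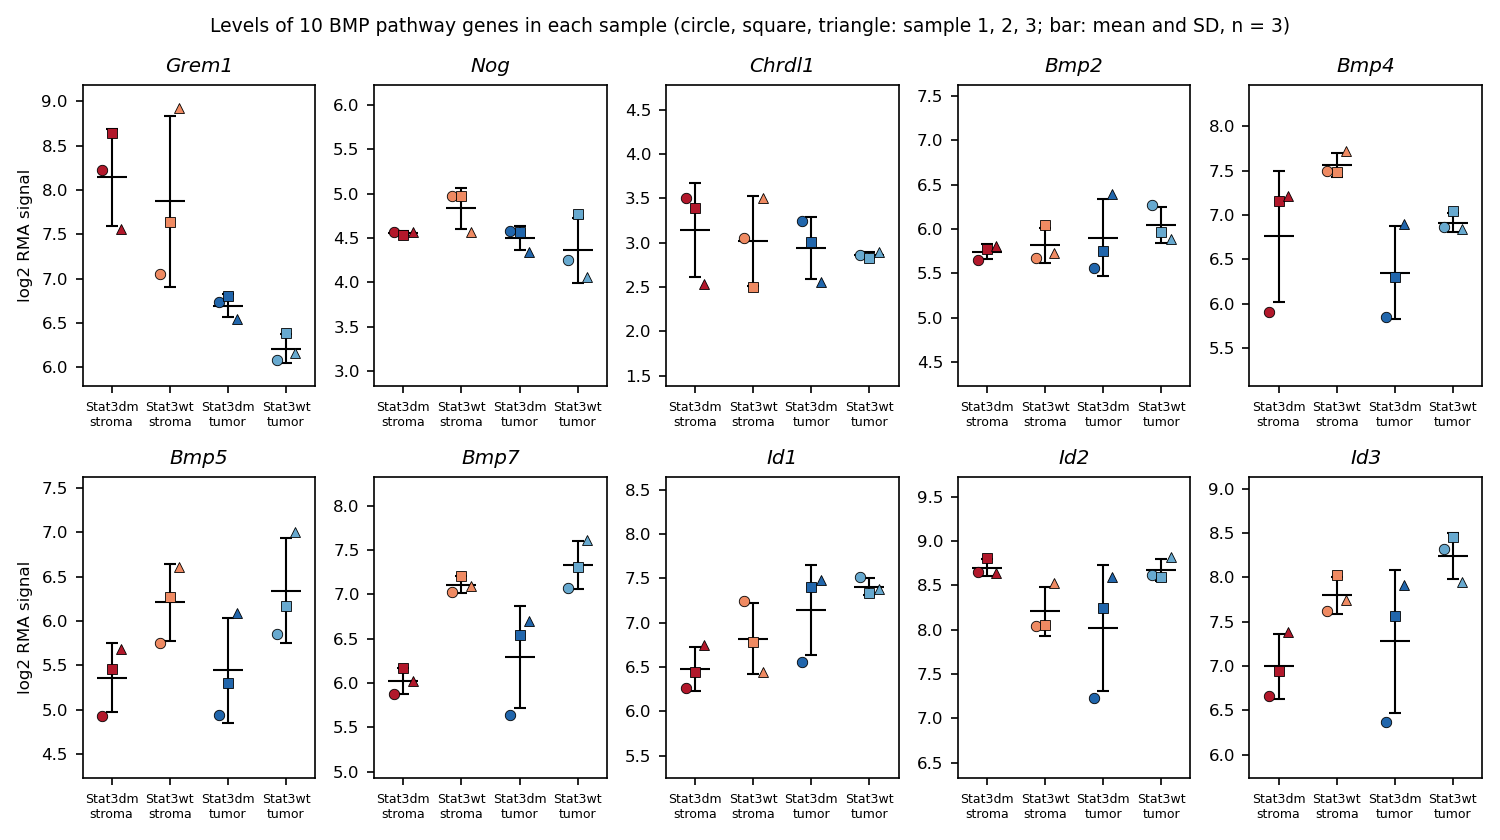
Log2 RMA signal of the 10 genes in every sample, with 1 panel a gene, the 4 groups along the x axis, 1 point a sample (circle, square and triangle for samples 1, 2 and 3) and bars for the mean and SD of 3 samples; all panels span the same log2 range. Bmp7 sat at 5.64 to 6.70 in the 6 Stat3dm samples and at 7.02 to 7.61 in the 6 Stat3wt samples, and Grem1 at 7.05 to 8.93 in the 6 stroma samples and 6.08 to 6.80 in the 6 tumor samples.

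Bmp7, a ligand best known for its role in the kidney and its epithelium, had log2 levels of 5.87, 6.17 and 6.02 in Stat3dm stroma, against 7.02, 7.21 and 7.09 in Stat3wt stroma. In tumor it had 5.64, 6.54 and 6.70 in Stat3dm samples, against 7.07, 7.31 and 7.61 in Stat3wt samples. Every Stat3dm sample was below every Stat3wt sample, in both tissues and across them. In stroma the log2 difference was -1.09 with a 95% confidence interval of -1.64 to -0.55 (limma, adjusted p = 0.336), and in tumor it was -1.04 with an interval of -1.58 to -0.49 (adjusted p = 0.267). Averaged over both tissues, Bmp7 fell to 6.16 ± 0.40 in Stat3dm samples, against 7.22 ± 0.22 in Stat3wt samples (SD, n = 6 each), a log2 difference of -1.07 ± 0.18 SE (adjusted p = 0.0254). In that averaged comparison 0.283% of the 16635 genes tested passed, and 1 of the 9 members tested did. If stroma and tumor of 1 number came from 1 mouse, the 6 samples of a genotype stand for 3 mice and this p is too small. The adjusted p was 0.0658 with a random replicate block (a shared term for the samples of 1 genotype and number) and 0.0618 after median centring of the arrays. The call was also lost, with a difference of -0.99 to -1.07 and an adjusted p of 0.056 to 0.095, when Stat3wt tumor 2, Stat3wt tumor 3, Stat3wt stroma 2, Stat3wt stroma 3, Stat3dm stroma 1 or Stat3dm stroma 3 was left out. Fewer cells that make a transcript and less of it per cell cannot be told apart in such samples. Of the epithelial markers, 9 of 12 had a higher mean in Stat3dm than in Stat3wt samples over both tissues, with a median log2 difference of 0.27 (0.07 to 0.46 leaving out 1 array). Of the 3 with a lower mean, Epcam had a difference of -0.28 and Cdh1 of -0.24. Krt18, a keratin of simple epithelia singled out after its values were seen, had one of -0.97 ± 0.19 SE (adjusted p = 0.0526). The groups of Krt18 did not overlap in either tissue. The part of epithelial cells in the level of Bmp7 was not tested.

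Bmp5 and Bmp4 are made by mesenchymal cells of the gut wall. Bmp5 had log2 levels of 4.93, 5.46 and 5.69 in Stat3dm stroma, against 5.75, 6.27 and 6.61 in Stat3wt stroma, and the groups did not overlap. In tumor it had 4.94, 5.30 and 6.09 in Stat3dm samples, against 5.86, 6.17 and 7.0 in Stat3wt samples, and these overlapped. In each of the 4 groups the array with the widest spread of log2 values had the highest Bmp5. The averaged log2 difference of Bmp5 was -0.88 ± 0.25 SE (adjusted p = 0.177), and -0.66 with the array spread as a covariate (adjusted p = 0.0309). Beside these ligands, 8 of 11 fibroblast markers had a lower mean in Stat3dm than in Stat3wt samples over both tissues (median log2 difference -0.12, and -0.24 to 0.04 leaving out 1 array), as did 7 of 9 smooth muscle markers (-0.16, and -0.35 to -0.07). Pdgfra, a receptor of gut fibroblasts, had a difference of -0.94 ± 0.26 SE (adjusted p = 0.172) and no overlap of the 6 Stat3dm with the 6 Stat3wt samples, and the matrix gene Fn1 one of -0.89 ± 0.35 SE (adjusted p = 0.463). Krt18, Pdgfra and Fn1 were singled out after their values were seen. Their part in the levels of Bmp5 and Bmp4 was not tested.

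Bmp4, which signals from the stroma to the epithelium, had log2 levels of 5.91, 7.16 and 7.21 in Stat3dm stroma, against 7.50, 7.48 and 7.72 in Stat3wt stroma. The groups did not overlap, and Stat3dm stroma 1 was far below the other Stat3dm stroma samples. The difference in stroma was -0.81 ± 0.32 SE (adjusted p = 0.881), and -0.38 without Stat3dm stroma 1. Epithelial markers averaged 8.63 in Stat3dm stroma 1, against 7.26 and 8.15 in the other Stat3dm stroma samples. Fibroblast markers averaged 7.64 there, against 8.55 and 7.98. The part of this tissue mix in its Bmp4 level was not tested. In tumor Bmp4 had 5.85, 6.30 and 6.90 in Stat3dm samples, against 6.86, 7.04 and 6.84 in Stat3wt samples, and the highest Stat3dm sample lay within the Stat3wt range. The averaged difference was -0.68 ± 0.23 SE (adjusted p = 0.305). Bmp2, the nearest relative of Bmp4 among the ligands, had group means between 5.74 and 6.04, with overlap of the genotypes in both tissues, and its averaged genotype difference was -0.11 with an interval of -0.45 to 0.24 (adjusted p = 0.934).

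The 3 target genes encode inhibitors of E proteins. Id3 had log2 levels of 6.66, 6.95 and 7.38 in Stat3dm stroma, against 7.62, 8.03 and 7.75 in Stat3wt stroma. In tumor it had 6.37, 7.56 and 7.91 in Stat3dm samples, against 8.32, 8.45 and 7.95 in Stat3wt samples. The groups did not overlap in either tissue, although the highest Stat3dm tumor sample was above 2 of the Stat3wt stroma samples. The averaged log2 difference was -0.88 ± 0.23 SE (adjusted p = 0.146), and -0.66 without Stat3dm tumor 1, the sample in which Id3 was lowest. In tumor alone it was -0.96 ± 0.33 SE (adjusted p = 0.568), and -0.51 without that sample.

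Id1, the target most often read as a sign of BMP signaling, had log2 levels of 6.26, 6.44 and 6.75 in Stat3dm stroma, against 7.24, 6.78 and 6.44 in Stat3wt stroma, which overlapped. In tumor it had 6.56, 7.40 and 7.48 in Stat3dm samples, against 7.51, 7.33 and 7.38 in Stat3wt samples. The averaged genotype difference was -0.30 with an interval of -0.70 to 0.10 (adjusted p = 0.779).

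Id2, which innate lymphoid, natural killer and dendritic cells also need for their development, completes the 3 targets. It had log2 levels of 8.65, 8.81 and 8.64 in Stat3dm stroma, against 8.04, 8.05 and 8.53 in Stat3wt stroma, with no overlap. In tumor it had 7.23, 8.24 and 8.59 in Stat3dm samples, against 8.62, 8.59 and 8.82 in Stat3wt samples. The genotype difference was 0.49 ± 0.29 SE in stroma (adjusted p = 0.999) and -0.65 ± 0.29 SE in tumor (adjusted p = 0.773), the second being -0.26 without Stat3dm tumor 1. The difference between these was 1.15 ± 0.40 SE, with an adjusted p of 0.995 in limma's interaction test. In the interaction 2.41% of all genes (1.33% above 0), and 1 of the 9 members, had an unadjusted p under 0.05, and none passed after adjustment. Leukocyte markers were high in the same group: all 10 had a higher mean in Stat3dm than in Stat3wt stroma, with a median log2 difference of 0.87 and mean levels of 7.04 to 7.65 against 5.89 to 6.90. In tumor these markers lay at 5.74 to 5.97 in Stat3dm samples and 5.68 to 5.97 in Stat3wt samples. Their part in the level of Id2 was not tested. Within the groups, Id2 ran with Id3 (r = 0.71, but 0.401 over the 12 arrays) and less closely with Id1 (0.472, but 0.142). Of the members, Bmp7 was the closest to Id2 within the groups (0.86, but 0.319 over the 12 arrays). Both varied most in Stat3dm tumor, with an SD of 0.71 for Id2 and 0.57 for Bmp7, against at most 0.28 and 0.27 in the other groups. Stat3dm tumor 1 was the lowest of its group for Bmp7, Id1, Id2 and Id3, and correlations without it were not computed. These correlations are a description with no test.

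Stat3dm tumor 1 was the lowest of the 3 Stat3dm tumor samples for Bmp2, Bmp4, Bmp5, Bmp7, Id1, Id2 and Id3. Its log2 values as an array had an SD of 1.65 and a median of 4.42. Stat3dm tumor 2 and Stat3dm tumor 3 had SDs of 1.72 and 1.85 and medians of 4.34 and 4.23. Epithelial markers averaged 8.59 in Stat3dm tumor 1, against 8.98 and 9.38 in the other Stat3dm tumor samples. Fibroblast markers averaged 7.26 there, against 7.54 and 7.46. The part of the narrower spread or of these cells in the low levels was not tested. Without Stat3dm tumor 1 the Bmp7 difference in tumor was -0.71 in place of -1.04 and that of Bmp5 -0.65 in place of -0.90. The Bmp5 difference in tumor was -0.57 without Stat3wt tumor 3 and -0.46 when array spread was a covariate. The averaged Bmp7 difference was then -0.90 (adjusted p = 0.0263).

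**Figure D3:**
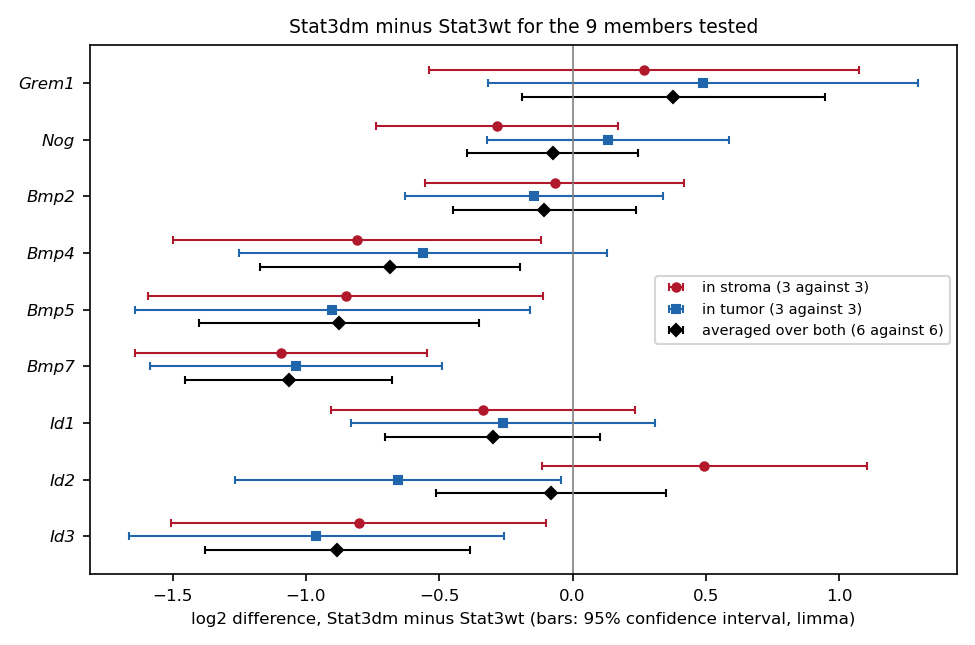
Log2 difference, Stat3dm minus Stat3wt, of the 9 members that passed the filter on dim genes (x axis), in stroma, in tumor and averaged over both; bars are 95% confidence intervals from limma. The 3 intervals of Bmp7, Bmp5 and Id3 lie below 0, and the stroma and tumor values of Id2 lie on opposite sides of 0.

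In stroma, 4 of the 9 members tested had an unadjusted p under 0.05 between genotypes, all lower in Stat3dm, where 5.07% of all genes had such a p and 1.94% had it in that direction. The stroma groups did not overlap for 5 members, against 10.8% of all genes; 1 was higher in Stat3dm (5.13% of all genes) and 4 were lower (5.62%). In tumor, 4 members had such a p, all lower in Stat3dm, against 6.26% of all genes, 1.76% of them higher and 4.5% lower in Stat3dm, and 3 did not overlap, against 9.52%. Of these, 1 was higher in Stat3dm (4.05% of all genes) and 2 were lower (5.46%). No member passed in stroma, where 0% of all genes did, or in tumor, where 0.018% did. Averaged over both tissues, 4 members (Bmp4, Bmp5, Bmp7 and Id3) had an unadjusted p under 0.05, all lower in Stat3dm, against 4.71% of all genes in that direction. Bmp7 was the 1 member whose 6 Stat3dm samples did not overlap the 6 Stat3wt samples, against 0.535% of all genes. The median difference of the 9 members was -0.30, beside -0.01 over all genes. The stroma and tumor comparisons use different arrays, but their mice may be shared. Because the members were chosen with earlier results of these data known, these shares are a description and no test of the pathway.

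Between the tissues, Grem1 was the member that differed most, at 2.94-fold higher in stroma than in tumor over both genotypes. Grem1 encodes gremlin 1, an antagonist that binds BMP2, BMP4 and BMP7 outside the cell and is made by fibroblasts and smooth muscle beneath the crypts. Bmp4 also had a higher mean in stroma and Id1 a lower one, and neither passed the test. The 95% intervals of Bmp2, Bmp5, Bmp7 and Id3 held 0 in both genotypes.

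Grem1 had log2 levels of 8.23, 8.64 and 7.56 in Stat3dm stroma, against 6.74, 6.80 and 6.55 in Stat3dm tumor. In Stat3wt mice it had 7.05, 7.64 and 8.93 in stroma, against 6.08, 6.39 and 6.16 in tumor. All 6 stroma samples were above all 6 tumor samples, and stroma was more variable, with an SD of 0.54 in Stat3dm stroma, against 0.13 in Stat3dm tumor, and of 0.96 in Stat3wt stroma, against 0.16 in Stat3wt tumor. The log2 difference was 1.44 ± 0.38 SE in Stat3dm mice (limma, adjusted p = 0.22) and 1.67 ± 0.38 SE in Stat3wt mice (adjusted p = 0.185). Averaged over both genotypes, Grem1 rose to 8.01 ± 0.71 in stroma, against 6.45 ± 0.30 in tumor (SD, n = 6 each), a difference of 1.56 ± 0.27 SE (adjusted p = 0.0249). In that averaged comparison 1 of the 9 members passed, against 2.55% of all genes, with 0.848% above 0 and 1.71% below it. The 6 stroma and 6 tumor samples did not overlap for 2.05% of all genes (0.721% higher in stroma), and for 1 member. The call was lost, with differences of 1.29 to 1.58 and an adjusted p of 0.0516 to 0.0815, without Stat3wt tumor 1, Stat3wt stroma 3, Stat3dm tumor 2, Stat3dm tumor 3 or Stat3dm stroma 2, and without the 2 arrays of widest spread together it was 1.51 (adjusted p = 0.107). The genotypes differed less than the tissues in Grem1: by 0.27 in stroma (interval -0.54 to 1.07, adjusted p = 0.999) and by 0.49 in tumor (-0.32 to 1.29, adjusted p = 0.823), where the groups nevertheless did not overlap.

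Of the stromal cell markers, 2 of 11 for fibroblasts, 3 of 8 for endothelium and 6 of 10 for leukocytes passed the averaged tissue comparison, all higher in stroma as Grem1 was, and 0 of 9 for smooth muscle did (2 at an unadjusted p under 0.05). The fibroblast marker Pdgfra had a tissue difference of -0.07. Fibroblast markers averaged 7.64 to 8.55 in Stat3dm stroma, against 7.26 to 7.54 in Stat3dm tumor, and 7.70 to 8.83 in Stat3wt stroma, against 7.34 to 8.03 in Stat3wt tumor. Smooth muscle markers averaged 6.30 to 6.84 in Stat3dm stroma, against 5.94 to 6.15 in Stat3dm tumor, and 5.97 to 7.08 in Stat3wt stroma, against 5.85 to 6.58 in Stat3wt tumor. The Stat3wt ranges overlapped in both lists. Endothelial markers averaged 5.79 to 6.40 in Stat3dm stroma, against 5.61 to 5.69 in Stat3dm tumor, and 6.02 to 6.84 in Stat3wt stroma, against 5.57 to 5.63 in Stat3wt tumor. All 3 lists were highest in Stat3wt stroma 3, which also had the highest Grem1. The part of these cells and of leukocytes in the Grem1 difference was not tested. Over the 12 arrays, the genes most like Grem1 by Pearson correlation were Sirpa (r = 0.953), Fbln2 (0.938) and Trps1 (0.936). The points share 4 groups and possibly mice, so these values describe likeness only.

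The other antagonists were dim. Nog, which encodes noggin, had log2 levels of 4.57, 4.53 and 4.57 in Stat3dm stroma, against 4.58, 4.57 and 4.34 in Stat3dm tumor. In Stat3wt mice it had 4.97, 4.97 and 4.57 in stroma, against 4.25, 4.77 and 4.06 in tumor, a difference of 0.48 ± 0.21 SE (adjusted p = 0.285), which was 0.19 with the array spread as a covariate (adjusted p = 0.902). These groups overlapped. Chrdl1, which encodes the BMP-binding protein chordin-like 1, had levels of 2.50 to 3.51 over the 12 arrays and fell among the 25% of genes with the lowest means (below 3.65), so it was not tested. Its group means were 3.14 in Stat3dm stroma, 3.02 in Stat3wt stroma, 2.94 in Stat3dm tumor and 2.86 in Stat3wt tumor, and all 4 groups overlapped.

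Among the ligands, Bmp4 levels in Stat3wt stroma lay above those in Stat3wt tumor without overlap (difference 0.65 ± 0.32 SE, adjusted p = 0.308), and the Stat3dm groups overlapped (0.41, interval -0.28 to 1.10). The averaged tissue difference of Bmp4 was 0.53 ± 0.23 SE (adjusted p = 0.191). The genes most like Bmp4 over the 12 arrays were Igfbp4 (r = 0.965), Adamdec1 (0.94) and Col18a1 (0.94). In order of the group means, Bmp4 ran from Stat3wt stroma (7.57) through Stat3wt tumor (6.91) and Stat3dm stroma (6.76) to Stat3dm tumor (6.35), and the last 3 of these groups overlapped.

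Among the targets, Id1 levels were lower in stroma. In Stat3dm mice the difference was -0.66 ± 0.27 SE (adjusted p = 0.438), with overlap through Stat3dm tumor 1, and -0.95 without that sample. In Stat3wt mice it was -0.58 ± 0.27 SE without overlap (adjusted p = 0.292), and -0.22 after quantile normalization. The averaged tissue difference was -0.62 ± 0.19 SE (adjusted p = 0.0848), and -0.77 without Stat3dm tumor 1 (adjusted p = 0.0219) but -0.36 after quantile normalization (adjusted p = 0.317). Epithelial markers moved the same way (all 12 lower in stroma), and their part was not tested. The genes most like Id1 were Tmem147 (r = 0.929), Mrpl52 (0.926) and Eif3i (0.925). Id1 ran opposite to Grem1 over the 12 arrays (r = -0.851, and -0.638 within the groups), as a description with no test.

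Id2 had higher levels in stroma than in tumor of Stat3dm mice (0.68 ± 0.29 SE, adjusted p = 0.469) and lower ones in stroma than in tumor of Stat3wt mice (-0.47 ± 0.29 SE, adjusted p = 0.37), with no overlap in either genotype. The first was 0.28 without Stat3dm tumor 1, and the second was -0.15 after quantile normalization and 0.02 with the array spread as a covariate. Id3 had a tissue difference of -0.28 in Stat3dm mice (interval -0.99 to 0.42) and of -0.44 in Stat3wt mice (-1.14 to 0.26).

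**Figure D4:**
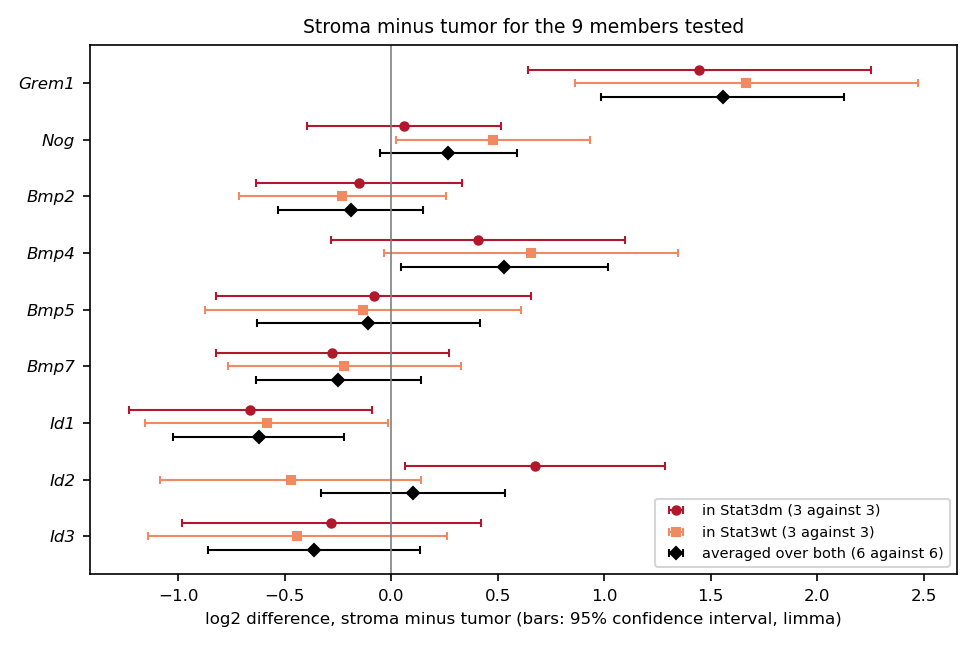
Log2 difference, stroma minus tumor, of the 9 members tested (x axis), in Stat3dm mice, in Stat3wt mice and averaged over both; bars are 95% confidence intervals from limma. The intervals of Grem1 lie above 0 and those of Id1 below it. The value of Id2 lies above 0 in Stat3dm and below 0 in Stat3wt mice, where its interval holds 0.

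In Stat3dm mice, 3 of the 9 members had an unadjusted p under 0.05 between the tissues, against 9.68% of all genes. Of these, 2 were higher in stroma (4.08% of all genes) and 1 was lower (5.6%). The groups did not overlap for 2 members, both higher in stroma, against 13.7% of all genes and 6.57% in that direction. In Stat3wt mice, 3 members had such a p, against 16.7% of all genes, with 2 higher (5.12%) and 1 lower (11.6%) in stroma. There the groups did not overlap for 4 members, against 23.9% of all genes, with 2 higher (8.88%) and 2 lower (15%). No member passed in either genotype, where 0% of all genes did. In the averaged comparison 3 members had an unadjusted p under 0.05, against 22.3% of all genes, with 2 higher (7.11%) and 1 lower (15.1%).

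Beyond these members, 54 other genes of the pathway were listed by role, of which 50 had a named probe set and 48 were tested. Of these, 1 passed in the averaged tissue comparison (2.55% of all genes) and 0 passed in the other comparisons. In the averaged genotype comparison 8 of the 48 had an unadjusted p under 0.05, against 8.23% of all genes, with 1 higher (3.52%) and 7 lower (4.71%) in Stat3dm. Between genotypes 1 had such a p in stroma, against 5.07% of all genes, and 4 had it in tumor, against 6.26%, all lower in Stat3dm. In the averaged tissue comparison 8 had it, against 22.3% of all genes. Between the tissues it was 0 in Stat3dm mice, against 9.68%, and 7 in Stat3wt mice, against 16.7%, and it was 0 in the interaction, against 2.41%. The gene that passed was Tob1, an antiproliferative protein that also binds BMP-activated SMADs. Tob1 had log2 levels of 5.86, 4.34 and 5.53 in Stat3dm stroma, against 5.34, 5.82 and 7.05 in Stat3dm tumor, and of 4.96, 4.73 and 4.63 in Stat3wt stroma, against 6.37, 5.86 and 6.79 in Stat3wt tumor. The Stat3wt groups did not overlap and the Stat3dm groups did, and averaged over both genotypes it fell by 1.20 on the log2 scale in stroma (adjusted p = 0.0486). Tob1 still passed when Stat3wt tumor 2, Stat3dm tumor 1 or Stat3dm stroma 1 was left out, and did not without any one of the other arrays (adjusted p up to 0.132).

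Smad6, an inhibitory SMAD that BMP signaling itself induces, had the smallest p of these genes between genotypes. Its log2 levels were 4.82, 5.04 and 4.98 in Stat3dm stroma, against 5.71, 5.72 and 5.48 in Stat3wt stroma, and 4.75, 5.02 and 5.54 in Stat3dm tumor, against 5.98, 5.84 and 5.72 in Stat3wt tumor. The groups did not overlap in either tissue, although Stat3dm tumor 3 (5.54) was above Stat3wt stroma 3 (5.48). The averaged difference was -0.72 ± 0.15 SE (adjusted p = 0.0746), which did not pass. Smad7, the inhibitory SMAD of both the BMP and the TGF-beta branch, had 6.08, 6.41 and 5.92 in Stat3dm stroma, against 6.22, 6.62 and 6.24 in Stat3wt stroma, which overlapped. In tumor Smad7 had 5.21, 6.29 and 6.67 in Stat3dm samples, against 7.07, 6.80 and 7.48 in Stat3wt samples, with no overlap (difference -1.06 ± 0.32 SE, adjusted p = 0.427, and -0.64 without Stat3dm tumor 1). Of the 6 inhibitors inside the cell or in its membrane, 5 had a lower mean in Stat3dm stroma and all 6 in Stat3dm tumor, with medians of -0.08 and -0.38. Without Stat3dm tumor 1, 5 of 6 had a lower mean in Stat3dm tumor (median -0.26).

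The E proteins that ID proteins bind were also lower on average in Stat3dm tumor, with all 3 below 0 and a median of -1.09, and of -0.67 without Stat3dm tumor 1. Tcf12 had a difference of -1.09 ± 0.34 SE (adjusted p = 0.481) and Tcf4 of -1.10 ± 0.38 SE (adjusted p = 0.592) there, with no overlap of the groups. Without that sample these were -0.70 for Tcf12 and -0.67 for Tcf4. Of 12 other antagonists tested, 9 had a lower mean in Stat3dm stroma (median -0.24), and 11 had a higher mean in stroma than in tumor on average (median 0.25), such as Fstl1 (0.55 ± 0.21 SE, adjusted p = 0.141, and 0.34 without Stat3wt stroma 3) and Chrdl2 (0.49 ± 0.19 SE, adjusted p = 0.162). Twsg1, which binds BMPs together with chordin, had an averaged genotype difference of -0.78 ± 0.28 SE (adjusted p = 0.37). The 11 other ligands had medians of -0.16 between genotypes in stroma and 0.20 in tumor, with Gdf10 at 0.47 ± 0.20 SE averaged (adjusted p = 0.511) and Gdf6 at 0.42 ± 0.16 SE higher in stroma than tumor (adjusted p = 0.136). Mean levels of these ligands were low, from 3.894 (Bmp15) to 5.515 (Bmp8b), with Gdf6 at 4.145, beside array medians of 4.20 to 4.43. All 11 had a higher mean in Stat3dm tumor, but 4 had a lower one without Stat3dm tumor 1. The 8 receptors and co-receptors tested were split, with 5 lower and 3 higher in mean in Stat3dm stroma and 4 each in Stat3dm tumor. Acvr1, a type I receptor, had an averaged genotype difference of -0.42 ± 0.19 SE (adjusted p = 0.593), and Acvrl1, the type I receptor of endothelial cells, a tissue difference of 0.33 ± 0.14 SE (adjusted p = 0.19). The averaged tissue difference was 0.36 ± 0.16 SE for the ligand Bmp10 (adjusted p = 0.214). It was 0.36 ± 0.15 SE for the antagonist Sostdc1 (adjusted p = 0.1905) and -0.42 ± 0.19 SE for Smad4 (adjusted p = 0.2165). The 4 SMADs that carry the signal had a median of -0.31 in stroma and 0.08 in tumor between genotypes, and the 4 other target genes tested medians of -0.23 and 0.21, with Hey1 at -0.30 ± 0.14 SE averaged (adjusted p = 0.589). Medians of such short lists moved when 1 array was left out: between genotypes in tumor that of the other ligands was then 0.09 to 0.41, and in stroma that of the other antagonists reached -0.07 without Stat3wt stroma 3.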

How the data were processed

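RNA from microdissected, paraffin-embedded tissue was amplified and biotin-labelled with kits for degraded RNA and hybridised to 1 Affymetrix array a sample, per the labels' protocols. The deposited log2 values of 41345 probe sets are the authors' RMA values and were used as deposited; the submitters' processing notes list Expression Console 1.3.1. RMA makes the arrays more alike and pulls differences of dim genes towards 0. The arrays as deposited still differed in median (4.20 to 4.43) and SD (1.60 to 1.91). By the platform annotation, 23521 probe sets had 1 symbol, 1814 several, and 16010 were unlisted. Of the 22180 genes, each taken at its probe set with the highest mean, the dimmest 25% were left out, which left 16635 genes and 9 of the 10 members.

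Limma 3.58.1 (R 4.3.3) fitted the 4 group means to the 12 arrays together, and tested 7 contrasts with eBayes and Benjamini-Hochberg adjustment over all genes at 0.05. The code was tested on simulated data. SE is the moderated standard error. Precision is limited by 3 arrays a group, and p-values measure the spread between these samples. None of the 66 pairs of arrays was identical. A fitted difference is given where the unadjusted p was under 0.05 or the groups did not overlap, with others by level or interval. The 3 tested genes most correlated with Grem1, Bmp4 and Id1, and up to 4 genes a pathway list with an unadjusted p under 0.05, are named. Members and lists were chosen with earlier results of these data known. Alternatives were other filters, normalizations, probe set and eBayes rules, replicate blocks, array weights, the array spread as a covariate and leaving out arrays.

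The numbers 1 to 3 were not taken to pair samples, since the labels give no shared mouse.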

Additional observations from a re-analysis of the deposited data

Results flagged for a closer look

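Id2 stood apart because stroma and tumor differed in opposite directions in the 2 genotypes. All 3 Stat3dm stroma samples (8.64 to 8.81) were above all 3 Stat3dm tumor samples (7.23 to 8.59), whereas all 3 Stat3wt stroma samples (8.04 to 8.53) were below all 3 Stat3wt tumor samples (8.59 to 8.82). The difference between the tissue differences was 1.15 on the log2 scale, with an adjusted p of 0.995 in limma, and 0.75 to 1.44 over fits that left out 1 array.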

How the results depend on the processing

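The 26 member differences reported were recomputed under 23 alternatives, 12 of which left out 1 array. Nog gave no value with the dimmest 50% of genes left out. Of 597 values, 559 kept their direction and their side of the threshold, 23 passed where the reported fit did not, 14 no longer passed, and 1 changed sign: Id2 between the tissues of Stat3wt mice was 0.02 when array spread was a covariate. The array weights were estimated gene by gene, because the default estimate did not converge. The cause of these shifts was not tested.

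The number of members called changed as follows. In the averaged tissue comparison it was 3 with a fixed replicate block, 2 with a random one, 3 with array weights, 0 without the 2 widest arrays and 0 to 2 leaving out 1 array, against 1. In the averaged genotype comparison it was 3, 0 and 3 with these 3 settings, 2 with the spread covariate, 0 after median centring and 0 to 1 leaving out 1 array, against 1. With the fixed replicate block it was 1 between the tissues of Stat3dm mice, 1 between those of Stat3wt mice and 2 between genotypes in tumor, and with array weights 2, 2, 2 and 1 (genotypes in stroma), against 0. Members that passed with the fixed replicate block were Grem1 in both genotypes (adjusted p = 0.0418 and 0.0388), Bmp5 (0.0419) and Bmp7 (0.0416) in tumor, Bmp4 and Id1 in the averaged tissue comparison, and Bmp5 and Id3 in the averaged genotype comparison, besides Grem1 and Bmp7 in these. In the tissue comparisons the fixed block was a term for the samples of 1 genotype and number. In the genotype comparisons it was a term for the number alone. That term joins samples of different genotypes, which cannot share a mouse.

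Counts over all genes also moved. The count as reported stands in parentheses. Between the tissues of Stat3wt mice (0) they were 138 and 5 with the fixed and random replicate block, 1020 with array weights and 0 to 8 leaving out 1 array. Between the tissues of Stat3dm mice (0) they were 33 after quantile normalization, 152 and 62 with the blocks, 612 with weights, 114 with the spread covariate and 0 to 22. Between genotypes in stroma (0) they were 1 after quantile normalization, 28 with the fixed block, 45 with weights, 13 with the covariate and 0 to 2. In tumor (3) they were 89 with the fixed block, 304 with weights, 14 with the covariate, 0 to 7 leaving out 1 array, and 5 with a stricter filter or a robust trend. The interaction (0) had 3 with weights. The averaged tissue comparison (425) had 168 after median centring, 1876 and 1648 with the blocks, 2642 with weights, 264 with the covariate, 0 without the 2 widest arrays and 0 to 1296. The averaged genotype comparison (47) had 90 and 17 after quantile normalization and median centring, 292 and 13 with the blocks, 431 with weights, 166 with the covariate, 21 without the widest arrays and 16 to 69.

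Same-numbered stroma and tumor samples of a genotype deviated together in 5 of 6 pairs (correlations 0.123 to 0.512, and -0.00414 for Stat3wt number 2), and same-numbered samples of different genotypes, which cannot share a mouse, correlated at 0.15 to 0.692 in tumor and -0.0404 to 0.152 in stroma. Within a genotype, 9 of 12 samples correlated best with their own number, a hint from the data and not the design. Signal over background was not known, so dim genes such as Nog and Chrdl1 are the least certain.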
